A study of Mus musculus with 21 samples.

Results

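The osmolyte genes described here are Slc5a3, Slc5a11, Slc6a6, Slc6a12, Akr1b3 and Nfat5, 6 of the 55487 genes in the counts table, matched by Ensembl identifier to the mouse symbol. They were chosen by name, and selected on earlier results of the same comparison of maternal separation with standard rearing, so the values of that comparison are given as a description and not as independent evidence. Hippocampi of male wild type C57BL/6 mice were taken at 10 weeks of age and poly-A RNA was sequenced with 1 library per mouse. In the maternal separation (MS) group, 9 mice, whole nests were kept from the dam for 4 hours a day from postnatal day 10 to 17, alternating between the light and the dark phase, and most of the nesting material was removed from the home cage meanwhile. The 12 mice of the standard rearing (SR) group were not separated, and a nest went to either condition as a whole, so littermates share their rearing.

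Cells counter a rise in the osmolarity of their surroundings by taking up or making small organic osmolytes, which hold water in the cell without disturbing proteins. Those carried or made by products of the genes described here are myo-inositol, taurine, betaine and sorbitol. The transcription factor NFAT5 (also called TonEBP) is activated by high tonicity and turns on the transporters and aldose reductase through a DNA element named TonE. Myo-inositol is also the precursor of the phosphoinositide signalling lipids, and taurine acts on inhibitory receptors of neurons.

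An MS library, that of MS mouse 5, stood apart. On the first component of a PCA over all 21 libraries it lay at 27.1, and the other 20 between -12.2 and 11.9. It had 0.692 CPM (the count as a rate of the library total, scaled by TMM factors) of the dentate granule cell gene Dsp, where the others had at least 54.0, and 418 CPM of Penk, which is abundant in striatum. Of the other libraries, MS mouse 1 had 135 CPM of Penk, SR mouse 8 had 81.9 and the rest at most 24.5. The library of MS mouse 5 was left out unless all 21 libraries are named, which left 8 MS and 12 SR mice with total counts of 17276810 to 26450808. The labels name no nest. The animal numbers in the titles form 7 sets of 3 consecutive numbers, each of 1 condition, called A to C (MS) and D to G (SR) here. They also fall into 2 ranges, the second of which holds sets C and G. edgeR's quasi-likelihood test kept 18146 genes and called 2 of them, 0.0110% of the genes tested.

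Slc5a3 encodes the sodium/myo-inositol cotransporter SMIT1 (ENSMUSG00000089774, chromosome 16 of GRCm38, 92058322 to 92087473, plus strand). It lies within Mrps6, which encodes a protein of the small mitochondrial ribosomal subunit (ENSMUSG00000039680, 92058270 to 92112227), on the same strand. In GENCODE M21 the start sites of the genes are 52 bases apart and their first exons share 159 bases, 1.46% of the 10913 exonic bases of Slc5a3 and 10.4% of those of Mrps6. The second exon of Slc5a3, 10754 bases long, holds all of its coding sequence and lies within the first intron of Mrps6. A fragment that lies wholly within the shared 159 bases cannot be told apart, while one that reaches past the junction that follows, or into the 52 bases before them that Mrps6 alone of the pair holds, can. A predicted gene on the same strand, Gm49711, overlaps 159 exonic bases of Slc5a3 and 305 of Mrps6 (19.9%), and had 0 to 5 counts per library. The handling of reads shared by overlapping genes is not given, so this count does not show how such reads were assigned. The junctions are printed below because they are where the transcripts part. The capitals mark the shared end of exon 1 (chr16:92058466-92058480), and the lower case marks the first 15 bases of the second exon of each gene (chr16:92076720-92076734 for Slc5a3 and chr16:92099594-92099608 for Mrps6).
Slc5a3: AAAGCCATGCGGCGGggttggtacagtagg
Mrps6: AAAGCCATGCGGCGGccagagaccgctgct

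**Figure D1:**
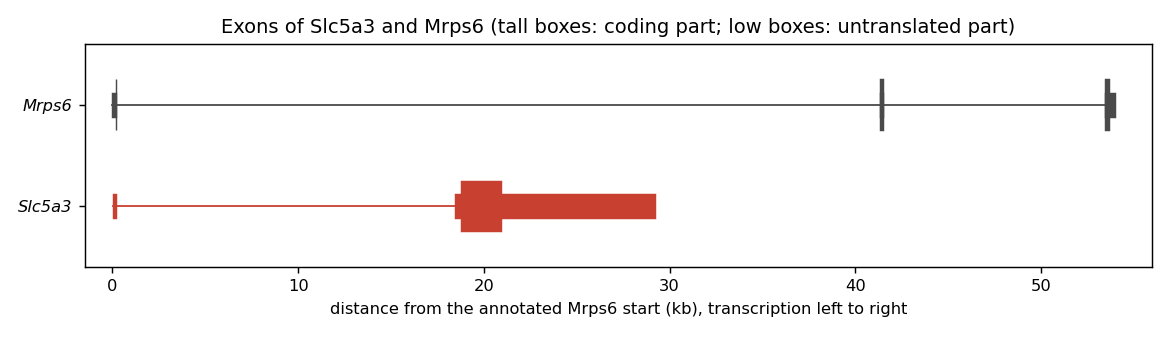
Exons of Slc5a3 and Mrps6 drawn to scale against the distance from the annotated Mrps6 start in kb. Tall boxes are coding parts and low boxes untranslated parts. The genes share only the first exon at the left, and the 10754-base second exon of Slc5a3 lies inside an intron of Mrps6.

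The stretch just before the starts of both genes is shown because they share it. It is the plus strand of chr16:92058072-92058269 (RefSeq's table for GRCm38.p6), with capitals for the GC box letters GGGCGG.
upstream of Mrps6 and Slc5a3: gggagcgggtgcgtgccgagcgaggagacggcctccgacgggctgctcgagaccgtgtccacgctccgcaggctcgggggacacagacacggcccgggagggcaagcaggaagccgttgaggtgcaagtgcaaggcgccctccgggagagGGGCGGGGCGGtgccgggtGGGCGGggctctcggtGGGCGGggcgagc
These 198 bases are 75.8% G or C and hold 24 CpG and 4 GC boxes, all on the plus strand, of which the first pair overlap by 1 base. Searched on both strands, a GC box was in the first 198 bases of 24.3% of the 32851 promoter windows of the table, and at least as many boxes as here in 1.71%.

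The letters TGGAAA, the core of TonE, were searched on both strands of the 300-base windows around annotated starts. Of the 6 osmolyte genes and Mrps6, 5 had windows. The core was in 21.4% of all windows and the whole TonE in 4.96%. Slc6a12 had a TonE match in 1 of its 5 windows, shown with the match in capitals (chr6:121342489-121342518, plus strand).
Slc6a12: aggtacttggTGGAAAACTCCagtctgtga
The windows of Slc5a3, Slc5a11, Nfat5 and Mrps6 held no TGGAAA, which says only that these letters are not in these windows.

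Per kilobase of exon, the mean level of the osmolyte genes in SR mice ran from Slc6a6 at 19.7 ± 1.01 CPM per kb (SD, n = 12) over Nfat5 at 5.99 ± 0.473, Akr1b3 at 3.29 ± 0.120 and Slc5a3 at 2.66 ± 0.369 to Slc6a12 at 0.340 ± 0.125 and Slc5a11 at 0.185 ± 0.0673. In MS mice Slc5a3 (3.47 ± 0.659 CPM per kb) and Akr1b3 (3.36 ± 0.178) stood in the other order, within their spread. Slc6a12 and Slc5a11 overlapped within their spread on this scale in both groups. The other neighbours in the order lay further apart than the sum of their SDs in each group. All 6 passed the filter on low counts, but Slc5a11 had 4 to 22 and Slc6a12 7 to 37 counts per library, so that counting error is large for both.

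Between MS and SR, Slc5a3 had a mean 1.31 times as high in MS and Slc6a6 one 0.895 times as high, and the other 4 genes had log2 fold changes below their standard errors or, for Nfat5, little above it. After adjustment over all genes, edgeR called 0 of the 6, where the background was 0.0110%. At an unadjusted p under 0.05 there were 2 of 6, Slc5a3 and Slc6a6, against 11.5% of all genes. DESeq2's Wald test called the same 2, against 0.966% of the 13871 genes to which it gave an adjusted p. It gave none to Slc5a11 and Slc6a12. In 0 of the 6 were the MS and SR mice wholly separate, as in 0.0110% of all genes. The median log2 fold change of the 6 was -0.019 and that of all genes tested 0.00084. Since the genes were named with this contrast known, nothing is read from these counts.

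In SR mice Slc5a3 ran from 23.7 to 37.1 CPM, with a median of 28.3. In MS it was 37.2, 41.3 and 39.3 CPM in mice 1 to 3 (set B), 42.5 and 40.5 in mice 4 and 6 (set A), and 27.1, 27.6 and 47.7 in mice 7 to 9 (set C). Thus 6 of 8 MS mice lay above every SR mouse, and MS mice 7 and 8 lay below the SR median. The means were 37.9 ± 7.19 (SD, n = 8) and 29.0 ± 4.03 (SD, n = 12) CPM. The log2 fold change, MS over SR, was 0.38 with a standard error (SE) of 0.101 (adjusted p = 0.159 by edgeR). Without MS mouse 8 it was 0.44 with an edgeR adjusted p of 0.0444, and without the whole of set C 0.47 with one of 0.00812. These were the lowest such values. With each library left out in turn the edgeR adjusted p of Slc5a3 reached 0.326, and with each set 0.495. Over all genes, edgeR called 109 without MS mouse 8 and 340 without set C, against 2 in the main fit. With DESeq2 the adjusted p was 0.0280 at a log2 fold change of 0.38. The mouse left out, MS mouse 5, had 30.8 CPM on the scale of all 21 libraries, within the SR range.

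Mrps6 itself was at 12.2 to 15.0 CPM in 7 MS mice and at 11.0 CPM in MS mouse 8. SR mice had 8.96 to 12.3 CPM, with a median of 10.6. All 8 MS mice were above the SR median and 6 above every SR mouse. Its log2 fold change was 0.31 (SE 0.0689, adjusted p = 0.111 by edgeR), and without MS mouse 8 it was 0.35 with an adjusted p of 0.0420, and without set C 0.30 with one of 0.0394. With each library left out in turn the edgeR adjusted p of Mrps6 ran from 0.0420 to 0.298, and with each set from 0.0394 to 0.437. DESeq2 gave an adjusted p of 0.0132.

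Slc5a3 and Mrps6 were then set against each other in each mouse. The ratio of their CPM was 2.47 to 3.19 in SR mice, with a median of 2.698. In MS the median was 3.04. The lowest was 1.81 in MS mouse 7, which had the highest Mrps6 but the lowest Slc5a3 of its group, and the highest 3.49 in MS mouse 4. The mean log2 ratio was 1.504 over the MS mice (SD 0.305) and 1.448 over the SR mice (SD 0.105). Within SR, the log2 CPM of the genes, as deviations from the group mean, had a Pearson r of 0.85 over 12 mice, and within MS 0.16 over 8. Each point shares a library and its depth, and reads of the shared exon may count for either gene. With the counts of Slc5a3 and Mrps6 summed as 1 gene, the log2 fold change was 0.37 (adjusted p = 0.111 by edgeR).

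**Figure D2:**
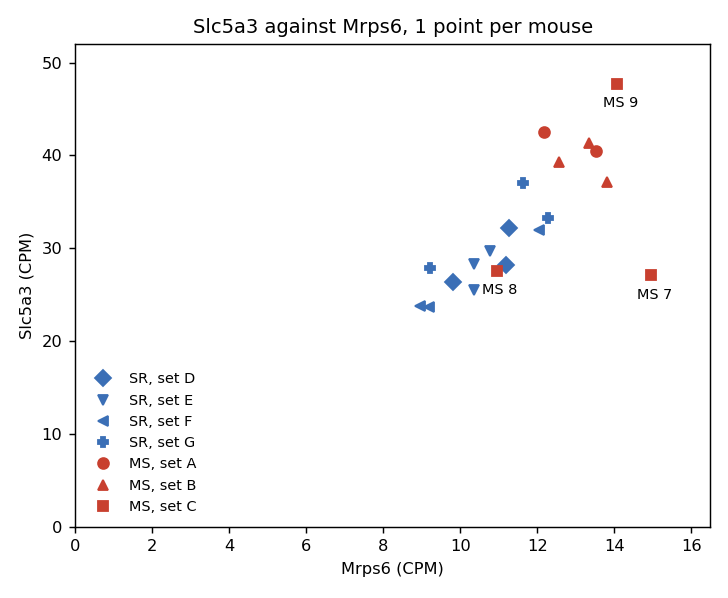
CPM of Slc5a3 (vertical) against CPM of Mrps6 (horizontal), 1 point per mouse, blue for SR and red for MS, with a symbol per set of animal numbers. SR mice and MS mouse 8 lie along 1 band, and MS mice 1, 2, 3 and 6 lie further up it. MS mice 4 and 9 lie above the band, with ratios of Slc5a3 to Mrps6 of 3.49 and 3.39, where SR mice had at most 3.19. MS mouse 7 lies below it at 27.1 CPM of Slc5a3 and 15.0 of Mrps6.

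Markers of other cells moved with Slc5a3. Hippocampal dissections can carry choroid plexus, an epithelium that moves myo-inositol. In bulk tissue, fewer cells of a type and less RNA per cell cannot be told apart. Of 10 choroid plexus markers (Ttr, Kl, Folr1, Clic6, Otx2 and others), 10 were tested, 0 were called and 0 had an unadjusted p under 0.05. Over all genes tested, 0.0110% were called and 11.5% had an unadjusted p under 0.05, the background for every marker list here. All 10 choroid plexus markers had a positive log2 fold change, with a median of 0.90, and none was at 0 in all libraries. Their summed level was 58.2 to 4306 CPM in MS (median 3406) and 33.5 to 4636 in SR (median 861.3). It was 3201 to 4306 CPM in the 5 MS mice of sets A and B. In set C it was 953 in MS mouse 7, 58.2 in MS mouse 8 and 1425 in MS mouse 9, which had the most Slc5a3. Among SR mice the highest sum, 4636, was in SR mouse 6, with 28.2 CPM of Slc5a3. The next, 4168, was in SR mouse 9, with 37.1 CPM, the most of the SR mice. Within groups the mean of these markers had a Pearson r of 0.55 with Slc5a3 and 0.48 with Mrps6 over 20 mice. With this mean as a term in the model, the log2 fold change of Slc5a3 was 0.28 (adjusted p = 0.387 by edgeR) and that of Mrps6 0.26 (adjusted p = 0.283 by edgeR). In the opposite direction, the 6 neuron markers (Rbfox3, Snap25, Syt1, Stmn2, Camk2a and Nrgn) had an r of -0.65 with Slc5a3, and the 6 microglia markers one of -0.58. All 6 neuron markers were lower in MS, 2 at an unadjusted p under 0.05 and 0 called, none at 0. Their sums were 7527 to 10734 CPM in MS (median 8493) and 8757 to 10158 in SR (median 9249). MS mouse 8 had 10734 and MS mouse 7 had 8931, while the other MS mice had at most 8674, below every SR mouse. For the endothelial and mural, oligodendrocyte, astrocyte and striatal neuron markers, r with Slc5a3 ran from -0.48 (astrocyte) to 0.14 (striatal neuron). Of these genes 0 were called and 1, an astrocyte marker, had an unadjusted p under 0.05. With the meningeal fibroblast markers the r of Slc5a3 was 0.18, and with the dentate granule cell markers -0.37. The microglia markers (Cx3cr1, P2ry12, Tmem119 and others) summed to 204 to 285 CPM in MS and 213 to 253 in SR, with 0 of 6 called or at an unadjusted p under 0.05 and none at 0. The part of neurons and microglia in the values of Slc5a3 was not tested.

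The 5 genes whose log2 CPM was most like that of Slc5a3 over the 20 mice, as deviations from the group means among 15854 genes with a mean of at least 1 CPM, were Cep162 (r 0.83), Plcxd3 (0.83), Sema3d (0.82), Cgn (0.81) and Rpgrip1l (0.80). The 99th percentile of all genes was 0.63. Cep162 and Rpgrip1l encode proteins of the ciliary base and Cgn encodes cingulin of tight junctions. Their log2 fold changes between MS and SR were 0.024 to 0.14. All 5 had an r with the neuron markers of -0.69 to -0.75, and r with the choroid plexus markers of 0.35 to 0.75.

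Slc5a11 encodes SMIT2, the other sodium/myo-inositol cotransporter (ENSMUSG00000030769, chromosome 7, 123214780 to 123273253). It was at 0.274 to 0.848 CPM in MS and 0.170 to 0.836 in SR, nearly the same range. The log2 fold change was 0.060 (SE 0.25, adjusted p = 0.954 by edgeR), and its sign turned without MS mouse 1 (-0.056), MS mouse 6 or SR mouse 7. Its r with the choroid plexus markers was 0.50, and with their mean as a term the log2 fold change was -0.12. The 3 MS mice of set C, at 0.315, 0.431 and 0.274 CPM, were the lowest of their group, and without set C the log2 fold change was 0.34 (adjusted p = 0.524 by edgeR). Over all 21 libraries the log2 fold change was 0.30 (adjusted p = 0.679 by edgeR), as MS mouse 5 had 1.29 CPM, above every other library.

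Slc6a6 encodes the taurine transporter TauT (ENSMUSG00000030096, chromosome 6, 91684053 to 91759066). In SR it ran from 153.9 to 181 CPM, with a median of 167. MS mice 1 to 3 had 162, 155 and 146 CPM, mice 4 and 6 had 149 and 153, and mice 7 to 9 had 134, 162 and 134. All 8 MS mice were below the SR median and 5 of them below every SR mouse, while all 12 SR mice were above the MS median. The means were 149 ± 11.0 (SD, n = 8) and 167 ± 8.56 (SD, n = 12) CPM, a log2 difference of -0.16 (SE 0.0409, adjusted p = 0.145 by edgeR). Without MS mouse 8 it was -0.18 with an edgeR adjusted p of 0.0497, and DESeq2 gave an adjusted p of 0.0279. With each library left out in turn the edgeR adjusted p of Slc6a6 ran from 0.0497 to 0.300, and with each set from 0.0922 to 0.467. MS mouse 5 had 211 CPM, more than any other library, and over all 21 libraries the log2 fold change was -0.095 (adjusted p = 0.549 by edgeR). With the choroid plexus term it was -0.16 (adjusted p = 0.302 by edgeR), and the r of Slc6a6 with the choroid plexus markers was 0.078. The antisense gene Gm44981 overlaps 117 of its 8457 exonic bases.

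Genes most like Slc6a6 by the same measure were Peli2 (r 0.74), Pdgfrb (0.73), Fbrs (0.73), Haus3 (0.71) and Gm15601 (0.70), where the 99th percentile of all genes was 0.54. Pdgfrb, a receptor of pericytes, had a log2 fold change of -0.10. Slc6a6 and Slc5a3 had an r of -0.059 with each other.

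Slc6a12 encodes the betaine/GABA transporter BGT1 (ENSMUSG00000030109, chromosome 6, 121343076 to 121365775), and is the gene with the TonE match printed above. MS mice had 0.603 to 1.35 CPM and SR mice 0.282 to 1.56, with full overlap. Its log2 fold change was -0.18 (SE 0.236, adjusted p = 0.823 by edgeR), and 0.022 without set E, whose 3 SR mice averaged 1.44 CPM. Within groups it had its highest r among the marker lists with meningeal fibroblasts, 0.49. Of those 8 markers (Dcn, Col1a1, Col1a2, Lum and others), 0 were called and 0 had an unadjusted p under 0.05, with sums of 38.4 to 106 CPM in MS and 37.0 to 97.1 in SR, none at 0.

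Akr1b3 encodes aldose reductase, which makes sorbitol from glucose (ENSMUSG00000001642, chromosome 6, 34302434 to 34317478, minus strand). It varied least of the 6 genes, relative to its mean. MS mice had 25.7 to 30.3 CPM (mean 28.2 ± 1.49, SD, n = 8) and SR mice 25.6 to 29.4 (mean 27.6 ± 1.01, SD, n = 12). The log2 fold change was 0.032 (SE 0.0361, adjusted p = 0.785 by edgeR).

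Nfat5 (ENSMUSG00000003847, chromosome 8, 107293470 to 107379517) encodes the transcription factor that controls the others under high tonicity. MS mice 1 to 4 had 115, 111, 112 and 108 CPM, and mice 6 to 9 had 104, 77.0, 101.8 and 110. SR mice had 92.1 to 127 CPM, with a median of 109. MS mouse 7 alone lay below the SR range. The log2 fold change was -0.070 (SE 0.0604, adjusted p = 0.700 by edgeR), and without MS mouse 7 it was -0.016. Over 20 mice Nfat5 had an r of 0.56 with Slc5a3, 0.72 within MS and 0.31 within SR. It had an r of -0.72 with the 5 dentate granule cell markers (Prox1, Dsp, C1ql2, Calb1 and Tdo2), which summed to 254 to 465 CPM in MS and 239.5 to 483 in SR. None of these markers was called, at an unadjusted p under 0.05 or at 0, and their part in Nfat5 was not tested. Nfat5 also had an r of 0.52 with the striatal neuron markers, -0.54 with the neuron markers and -0.57 with the microglia markers. The striatal neuron markers summed to 600 CPM in MS mouse 1 and 368 in SR mouse 8, the mice with the most Nfat5 of their groups. The part of these cells in Nfat5 was not tested either.

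**Figure D3:**
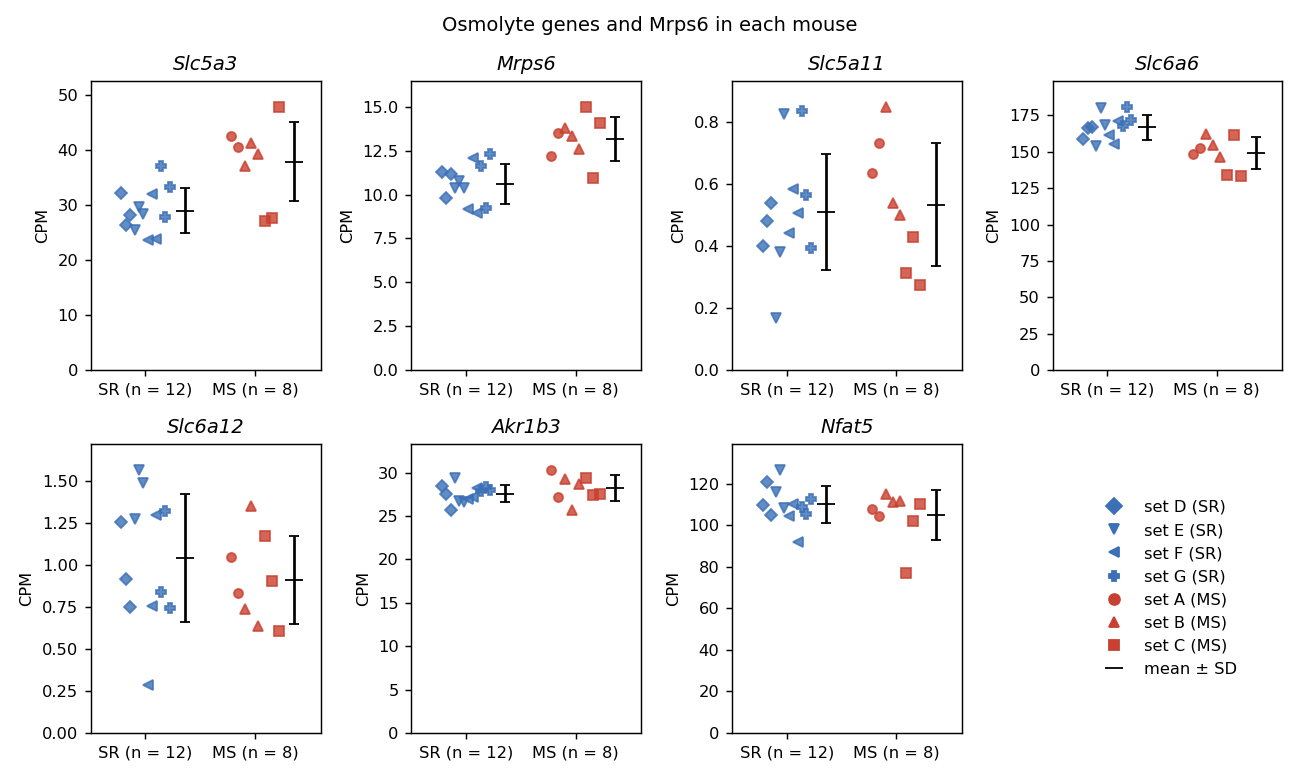
CPM of each osmolyte gene and of Mrps6 in every mouse of SR (blue, n = 12) and MS (red, n = 8), with axes from 0, a symbol per set of animal numbers and the mean ± SD in black. For Slc5a3, 6 MS mice lie above every SR mouse and 2 of set C among the lower SR mice, while for Slc6a6 all MS mice lie below the SR median.

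How far the 6 genes varied among mice of the same rearing was tested between the sets of animal numbers, a comparison other than the one the genes were selected on. Between the 4 SR sets, edgeR called 0 of the 6 osmolyte genes, 0 had an unadjusted p under 0.05, and DESeq2's likelihood ratio test also called 0. Of the 19023 genes tested by edgeR, 0.0158% were called and 1420 had an unadjusted p under 0.05. The mean of Slc5a3 was 28.9 CPM in set D, 27.8 in E, 26.5 in F and 32.7 in G (adjusted p = 0.727 by edgeR). That of Slc6a6 was 164 in D, 167 in E, 162 in F and 173 in G (adjusted p = 0.839 by edgeR). Between the 3 MS sets, edgeR and DESeq2 again called 0 of the 6, with 0 at an unadjusted p under 0.05. Of the 18905 genes tested there by edgeR, 0.0952% were called and 1677 had an unadjusted p under 0.05. Slc5a3 averaged 41.5 CPM in set A, 39.2 in B and 34.1 in C (adjusted p = 0.884 by edgeR), and its SD was 1.42 in A, 2.06 in B and 11.8 in C. Set A held only 2 mice, as MS mouse 5, with 30.8 CPM on the scale of all 21 libraries, was left out. Slc5a3 thus varied little between the 2 mice of set A and within set B, and widely within set C. Nfat5 and Slc6a6 also had their widest spread in set C, with SDs of 17.3 and 16.0 CPM.

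Within the first range of animal numbers (5 MS and 9 SR mice) the log2 fold change of Slc5a3 was 0.54 (SE 0.113), and within the second (3 and 3 mice) 0.054 (SE 0.167). The difference was -0.48 (SE 0.202, unadjusted edgeR p = 0.0271, adjusted p = 0.542). For Mrps6 the values were 0.33 and 0.27, and the difference -0.059 (SE 0.153, adjusted p = 0.941 by edgeR). Slc6a6 had -0.10 in the first and -0.28 in the second range (edgeR adjusted p of the difference 0.582). Slc5a11 had 0.44 and -0.81, on few counts (edgeR adjusted p of the difference 0.526). Akr1b3 had 0.046 and 0.0037, and Nfat5 -0.0017 and -0.18. Over the 6 osmolyte genes edgeR called 0 differences between the ranges, with 3 at an unadjusted p under 0.05 (Slc5a3, Slc5a11 and Slc6a6), and DESeq2 called 0, with 2 at an unadjusted p under 0.05. Of all genes edgeR called 0%, and 8.52% had an unadjusted p under 0.05. The second range holds only sets C and G, so range and set cannot be told apart. Choroid plexus marker sums of MS mice were 3201 to 4306 CPM in the first range and 58.2 to 1425 in the second. Those of SR mice were 33.5 to 4636 and 62.2 to 4168. With the choroid plexus term, the unadjusted edgeR p of the difference was 0.159 for Slc5a3, 0.103 for Slc5a11 and 0.0467 for Slc6a6. Over all 21 libraries without that term it was 0.0609, 0.0103 and 0.0455.

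**Figure D4:**
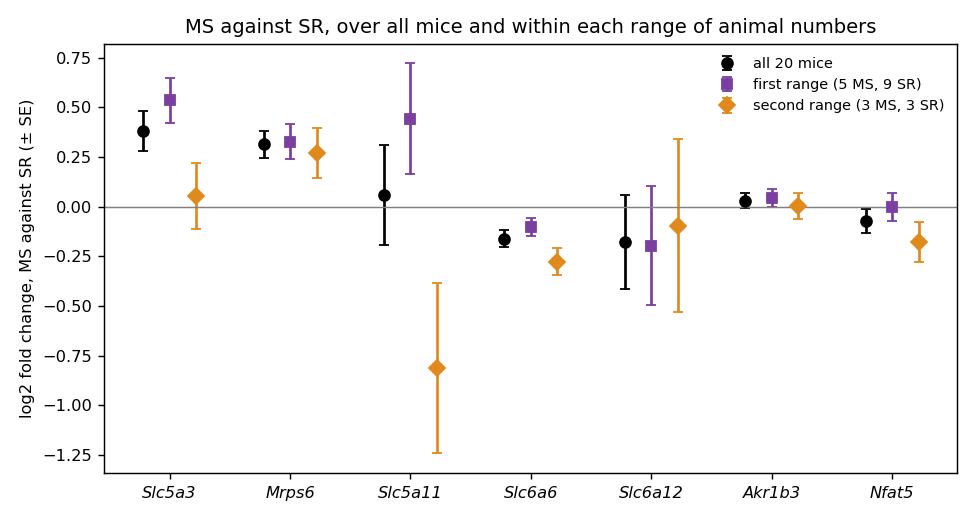
Log2 fold change of MS against SR with its standard error for each osmolyte gene and Mrps6, over all 20 mice (black), in the first range of animal numbers (purple) and in the second (orange). Slc5a3 lies at 0.54 in the first range and 0.054 in the second, and Mrps6 at 0.33 and 0.27.

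The other genes of osmolyte supply and cell volume formed a list of 41, of which 38 passed the filter. Miox, Gadl1 and Lrrc8e did not pass. edgeR called 0 of the 38. DESeq2, run without that filter on all 41, called 0 with 7 at an unadjusted p under 0.05. At an unadjusted edgeR p under 0.05, 6 were higher and 3 lower in MS, or 9 of 38, where the share over all genes tested was 11.5%. The median log2 fold change of the 38 was 0.030, with 26 positive and 12 negative. For all genes tested it was 0.00084, with 9136 positive and 9010 negative.

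Among genes of inositol supply, Isyna1, the synthase that makes inositol phosphate from glucose 6-phosphate, averaged 34.3 CPM over the 8 MS mice (SD 5.35) and 29.96 over the 12 SR mice (SD 3.06). The difference on the log2 scale was 0.19 (SE 0.0771, adjusted p = 0.332 by edgeR). Slc2a13, the proton-coupled myo-inositol transporter HMIT, averaged 94.6 CPM in MS (SD 7.84) and 100.6 in SR (SD 3.96), a log2 difference of -0.089 (SE 0.0409, adjusted p = 0.404 by edgeR). The inositol monophosphatase gene Impa1 differed by 0.026 on that scale (SE 0.0385), and Cdipt, which joins inositol to lipid, by 0.0034 (SE 0.0293).

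For taurine supply, Csad, the decarboxylase that makes hypotaurine, averaged 31.3 CPM in MS (SD 2.15) against 28.2 in SR (SD 2.04), and 7 of 8 MS mice were above the SR median. The log2 fold change was 0.15 (SE 0.0485, adjusted p = 0.226 by edgeR). Cdo1, the dioxygenase before it, had -0.069 (SE 0.0494), and Slc6a13, the GABA transporter GAT2 that also carries taurine, 0.047 (SE 0.311).

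For betaine and glycerophosphocholine, Gpcpd1, which cleaves glycerophosphocholine, was below the SR median in all 8 MS mice. Its means were 90.3 CPM over 8 MS mice (SD 5.27) and 100.4 over 12 SR mice (SD 7.52), a log2 difference of -0.15 (SE 0.0449, adjusted p = 0.191 by edgeR), the smallest p of the list. Chdh, choline dehydrogenase, averaged 13.6 CPM in MS (SD 3.24) and 10.5 in SR (SD 2.61), a log2 difference of 0.37 (SE 0.155, adjusted p = 0.365 by edgeR). Bhmt, which uses up betaine, had 0 to 33 counts per library and a log2 difference of 1.26 (SE 0.57, adjusted p = 0.404 by edgeR).

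Of the signalling genes and channels, Hspa1b, an inducible heat shock protein gene, averaged 53.1 CPM over the MS mice (SD 10.5) and 43.3 over the SR mice (SD 9.53). Its near-identical neighbour Hspa1a makes the count uncertain. The log2 difference was 0.30 (SE 0.128, adjusted p = 0.375 by edgeR). Among the potassium channels that pair with the inositol transporters, Kcnq3 differed by -0.11 on the log2 scale (SE 0.0427, adjusted p = 0.319 by edgeR) and Kcnq1, at a mean under 1 CPM in both groups, by 0.34 (SE 0.166, adjusted p = 0.432 by edgeR). Kcne2 had 3 to 583 counts per library and a log2 difference of 0.93 (SE 0.741), and Trpv4 40 to 863 counts and 0.71 (SE 0.563), and for both the SD within each group was larger than the difference of the means. In SR mouse 6, with the highest choroid plexus marker sum, Kcne2 was at 24.2 and Trpv4 at 27.9 CPM. In SR mouse 7, with the lowest sum, they were at 0.170 and 1.82 CPM. The part of choroid plexus in these values was not tested. Of the volume-regulated channel subunits and cotransporters, 8 were tested and 0 had an unadjusted p under 0.05.

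**Figure D5:**
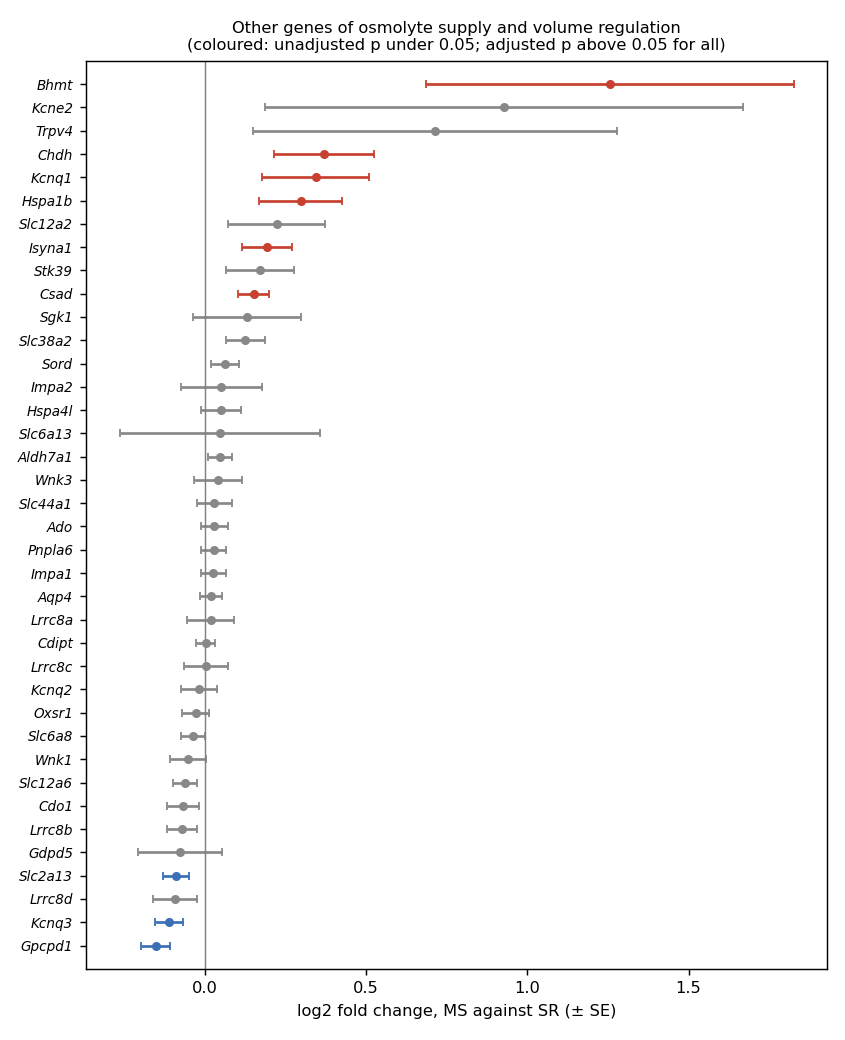
Log2 fold change of MS against SR with its standard error for the 38 other genes of osmolyte supply and volume regulation that were tested, ordered by size. Red and blue points have an unadjusted p under 0.05 (6 higher and 3 lower in MS), grey points do not, and no gene had an adjusted p under 0.05.

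Between the SR sets, 1 of the 39 genes of this list that were tested was called, where the background was 0.0158% of all genes. This was the kinase gene Sgk1, which responds to tonicity and to corticosteroids (edgeR adjusted p = 0.0147, and DESeq2 called it too). It averaged 101 CPM in set D (93.9 to 105), 53.6 in E (43.8 to 61.3), 86.3 in F (81.3 to 91.2) and 66.3 in G (62.2 to 68.9). In MS it averaged 95.9 CPM in set A, 94.0 in B and 66.8 in C (adjusted p = 0.592 by edgeR). Between MS and SR its log2 fold change was 0.13 (SE 0.167, adjusted p = 0.814 by edgeR).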

How the data were processed

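Poly-A RNA of single hippocampi was sequenced as paired-end reads with a directional kit. The authors aligned the reads with STAR 2.7.3a to GRCm38, counted them with featureCounts on Ensembl genes and deposited raw counts, neither normalized nor filtered. The strand setting and the handling of reads shared by overlapping genes are not given in the sources used here. All columns matched a sample (0 of no sample), and total counts lay between 17276810 and 30449055 per library.

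Samples were grouped by the treatment in their labels. The study removed 1 outlier without naming it. Here the library farthest from the rest on the first component of a PCA (DESeq2 variance-stabilised counts, 500 most variable genes) was left out. Genes were kept by filterByExpr at a minimum count of 10, scaled by TMM factors, and fitted all together with edgeR 4.0.16 (robust quasi-likelihood test, R 4.3.3) with Benjamini-Hochberg adjustment and a threshold of 0.05. Standard errors were taken from the F statistic and the size of the log2 fold change. Computations were tested on simulated data.

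The members, the pathway list and the marker lists were chosen with earlier results of these data known. Besides the members and Mrps6, the genes named are the pathway genes with an unadjusted p under 0.05 and the 5 genes most correlated with Slc5a3 and with Slc6a6. Sgk1, Kcne2, Trpv4, Impa1, Cdipt, Cdo1, Slc6a13 and the pathway genes below the filter were named after their values were seen. Alternatives were DESeq2 1.42.0, limma 3.58.1 voom with a random block, other filters, size factors, terms and libraries. Gene models are those of GENCODE M21. Nests are not named in the labels, and p-values over mice treat littermates as independent.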

Additional observations from a re-analysis of the deposited data

Results flagged for a closer look

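Nfat5 in MS mouse 7, at 77.0 CPM, lay far below the next MS mouse at 101.8, with a gap of 0.653 of the group's range over 8 mice. The threshold for singling out a mouse is one that chance passes in about 1 in 20 groups, and 7 genes were examined. The same mouse had the lowest Slc5a3 and the highest Mrps6 of its group. In the library of MS mouse 5, which the comparisons leave out, Slc6a6 was at 211 CPM, above the highest SR mouse at 180.5, and Slc5a11 at 1.29 CPM, above the highest SR mouse at 0.836. No explanation of these values was tested.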

How the results depend on the processing

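With 2 genes called in the comparison of MS with SR, other settings called 1 over all 21 libraries, 134 by DESeq2's Wald test, 1 with no filter on low counts, and 0 with counts summed within each set (1753 at an unadjusted p under 0.05) or with the choroid plexus term (1501). Without set A, B, D or F the count was 0 (1561 to 1769 at an unadjusted p under 0.05), without G 1 and without C 340. With each library left out in turn it lay between 0 (without SR mouse 1, 5 or 11 or MS mouse 1, 2, 4 or 6, with 1661 to 2069 at an unadjusted p under 0.05) and 109 (without MS mouse 8 or 9). Of the 6 osmolyte genes, 0 called, the count was 2 by DESeq2, 1 without set C, 0 to 2 with each library left out (2 without MS mouse 8), and 0 under the other settings run. It was 0 for the pathway list in every setting, and for the 6 genes between sets and between ranges. The cause of these changes was not tested. The log2 fold change of Slc5a3 lay between 0.28 and 0.47, and that of Slc6a6 between -0.19 and -0.095, over all settings. That of Slc5a11 (0.060) turned to -0.12 with the choroid plexus term, to -0.088 without set A, to -0.090 without set B, and to -0.0013 without set E, was 0.34 without set C, and ran from -0.056 to 0.15 with each library left out. That of Slc6a12 (-0.18) turned to 0.022 without set E. At least 10 counts in every library left no value for Slc5a11 and Slc6a12. When sets of animal numbers replaced mice as the unit, the edgeR adjusted p was 0.399 for Slc5a3 and for Slc6a6. No paired analysis was possible because the labels give no number that ties an MS mouse to an SR mouse. Depth limits what can be said of Slc5a11 and Slc6a12, with at most 37 counts per library.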
